A study of Mus musculus with 99 samples.

Results

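The RNA-seq libraries of the RING1B WT rescue line, grown with 4-hydroxytamoxifen (OHT) or with its ethanol vehicle, are 4 of the 99 samples of the series. They are the samples whose labels name the RING1B WT line, 2 with OHT and 2 without, and they are compared to find which genes move although wild-type RING1B is still expressed from a transgene. Every line compared here comes from ROSA26::creERT2 RING1A-/-; RING1B fl/fl mouse embryonic stem cells (ESCs), so RING1A is missing from the vehicle libraries as well. OHT at 0.5 µM for 72 h activates the Cre recombinase and deletes the endogenous Ring1b gene. The RING1B WT line is a puromycin-selected derivative in which a CAG-driven vector expresses wild-type RING1B with Flag and HA tags, so the rescue protein is not under the control of the gene's own promoter. The other lines are the Parental line, which has no transgene, and RING1B I53S, whose transgene encodes RING1B without catalytic activity. All cells were kept in 2i/LIF medium, and each line and treatment has 2 libraries. The sources used here do not say whether the 2 replicates were separate cultures, so p-values measure the spread between these libraries, which may be technical.

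RING1B, encoded by Rnf2, and its paralogue RING1A are the E3 ligase subunits of Polycomb repressive complex 1 (PRC1), which places ubiquitin on a lysine of histone H2A (H2AK119ub1). In ESCs, PRC1 and the H3K27 methyltransferase complex PRC2 sit together on CpG-rich promoters of developmental genes and keep them silent. A variant PRC1 that contains PCGF6 is known for the promoters of germ cell genes.

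With OHT, 244 genes rose and 7 fell in RING1B WT cells, out of 18154 gene names tested among 55341 in the count table. The share called higher was 1.34% and the share called lower 0.0386%. A gene was called when edgeR's quasi-likelihood test gave a Benjamini-Hochberg adjusted p (FDR) under 0.05 and the absolute log2 fold change was at least 1.5. The called list included germ cell genes (Stra8, Mael, Dazl), Hox and other homeobox genes (Hoxb13, Nkx2-9, Dlx3), trophoblast genes (Gata3, Esx1, Hand1) and the cell cycle regulator Ccnd2. The 244 log2 fold changes ran from 1.5 to 7.43, with a median of 2.30, while the median over all genes tested was 0.02. Most of these genes stayed at low levels. Their median level was 0.862 CPM (counts scaled to library size by edgeR's TMM factors) in vehicle and 4.32 CPM with OHT, 207 of the 244 remained under 10 CPM with OHT, and 14 had no count in either vehicle library. Of the 244, 241 are protein coding. In bulk RNA, a few cells with a high level and many cells with a low level cannot be told apart.

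The size of the list rested on 2 libraries. Without vehicle replicate 2 (RING1B WT −OHT) the test called 21 genes higher and 4 lower, and without OHT replicate 2 (RING1B WT +OHT) it called 9 higher and 1 lower. Without the other replicate of each group it called 240 and 230 genes higher, of which 137 and 170 belonged to the 244. Without replicate 1 of both groups 230 genes were called higher, and without replicate 2 of both groups 0 were called in either direction by edgeR, with 849 genes at an unadjusted p under 0.05. The 2 libraries lay further apart than the others along the direction of the OHT effect. Over the 2748 genes called higher in Parental cells (15.1% of those tested), the median log2 difference between replicates with the same number was 0.65 for replicate 1 and 1.19 for replicate 2. Vehicle replicate 2 differed from vehicle replicate 1 by a median of −0.29 over that set, and OHT replicate 2 differed from OHT replicate 1 by 0.23.

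**Figure D1:**
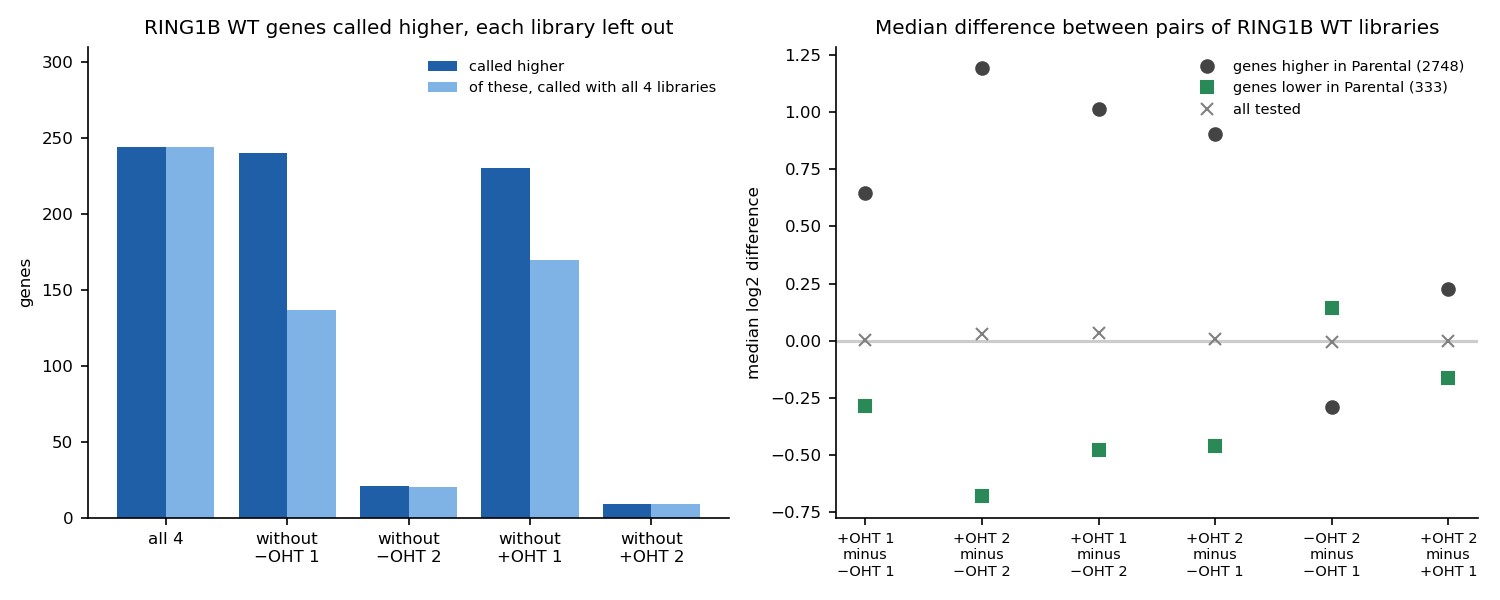
Left, genes called higher in RING1B WT cells with OHT when each of the 4 libraries was left out in turn (dark bars), and how many of them belonged to the 244 called with all 4 (light bars). Right, median log2 difference between pairs of RING1B WT libraries over genes higher in Parental cells (circles, 2748), lower in Parental cells (squares, 333) and all genes tested (crosses). The count falls to 21 and 9 without a replicate 2, and the widest pair, 1.19, is that of both replicates 2.

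The call held for 7 genes that rose with each of the 4 libraries left out in turn, namely Cd7, Id2, Krt7, Sept4, Sct, Nkx2-9 and Fxyd1, and for 1 gene that fell, Trh. Cd7 (GRCm38 chromosome 11, 121036747 to 121039418), a surface glycoprotein of T and NK cells, stood at 0.963 and 1.32 CPM in the vehicle libraries and at 9.36 and 8.22 CPM with OHT. Both OHT libraries were above both vehicle libraries, as in all 244 called genes and in 26.9% of all genes tested. The replicates of each group lay close together. The log2 fold change was 2.94 ± 0.38 (SE from the fit of all 12 libraries, n = 2 per group, edgeR FDR = 0.00107). Krt7 (chromosome 15, 101411043 to 101430313), a keratin of simple epithelia, went from 10.2 and 6.36 to 27.8 and 32.4 CPM, a log2 fold change of 1.86 ± 0.25 (FDR = 0.00107). Id2 (chromosome 12, 25093799 to 25097140) encodes an inhibitor of basic helix-loop-helix factors. It was counted at 15.4 and 7.46 CPM in vehicle and at 44.0 and 74.3 CPM with OHT, with a log2 fold change of 2.37 ± 0.31 (FDR = 0.00107). Its replicates were further apart than those of Cd7 in both groups. Every OHT value was above every vehicle value, again as in all 244 called genes and in 26.9% of all genes tested.

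Sct, which encodes the hormone secretin, was at 1.71 and 1.43 CPM in vehicle and at 7.35 and 10.8 CPM with OHT (log2 fold change 2.52 ± 0.35, edgeR FDR = 0.00133). The homeobox gene Nkx2-9 (chromosome 12, 56611389 to 56613284) was at 0.642 and 0.987 CPM in vehicle and at 4.83 and 5.85 CPM with OHT (2.69 ± 0.40, FDR = 0.00193). Sept4, a septin, was at 0.535 and 0.768 CPM against 5.94 and 5.11 CPM (3.07 ± 0.47, FDR = 0.00271). Fxyd1, a regulator of the sodium pump, was at 0.107 and 0.219 CPM against 3.32 and 2.62 CPM (4.10 ± 0.66, FDR = 0.00277). These 4 genes were separated between the groups by more than their replicates differed, at levels of a few CPM. In Parental cells the same 7 genes had log2 fold changes of 2.41 for Cd7, 2.35 for Krt7, 4.22 for Id2, 3.36 for Sct, 6.58 for Nkx2-9, 3.20 for Sept4 and 4.54 for Fxyd1. For Id2 and Nkx2-9 the OHT effect was smaller in RING1B WT than in Parental cells by edgeR's test of the difference (−1.86, FDR = 0.0272, and −3.89, FDR = 0.00696). For the other 5 that test was not passed (FDR 0.454 to 0.97).

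The genes that rose in RING1B WT were mostly genes that also rose when RING1B was lost without a rescue. Of the 244 genes, 232 (95.1%) were also called higher in Parental cells, which is 8.44% of the Parental list of 2748. In RING1B I53S cells 2323 genes were called higher (12.8% of those tested) and 188 lower (1.04%), and 228 of the 244 (93.4%) were among those called higher. Each line has its own vehicle libraries, so these lists compare separate libraries. They still come from the same fit, which shares the low-count filter, the normalization and the spread across lines, so they are not independent. With the RING1B WT libraries alone, 225 of the 244 genes passed the filter and 139 of the 244 were called higher. The median log2 fold change of the same 244 genes was 2.30 with the RING1B WT rescue, 3.33 in Parental and 2.93 in RING1B I53S cells. Their median level with OHT was 4.32 CPM in RING1B WT and 12.7 CPM in Parental cells, and 239 of them were lower in RING1B WT with OHT than in Parental with OHT. In 233 of the 244, both RING1B WT libraries with OHT exceeded both Parental vehicle libraries, against 25.7% of all genes tested. The 244 were called for high values in these same OHT libraries, so this count is a description and no separate support. In vehicle, 202 of the 244 (82.8%) were lower in RING1B WT than in Parental cells, against 49.5% of all genes tested, although low vehicle values also favour a call. Across all genes, 4886 (26.9%) had both OHT libraries above both vehicle libraries in RING1B WT, all 244 among them.

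The size of the OHT effect in RING1B WT followed its size in Parental cells over the whole range. Genes were sorted by their Parental log2 fold change. Among the 8499 genes within 0.5 of 0, the RING1B WT median was −0.04 and 0.0118% were called higher. Among the 1863 genes at 1.5 to 3 in Parental cells the median was 0.89 and 4.83% were called, and among the 882 genes at 3 to 5 it was 1.60 and 11.7%. Among the 361 genes above 5 it was 2.24 and 10.8% were called. The RING1B I53S medians for the last 3 classes were 1.80, 3.08 and 4.45. Over the whole set of 2748 genes higher in Parental cells, 2518 (91.6%) lay above 0 in RING1B WT, with a median of 1.18. Genes that fell in Parental cells lay slightly below 0. The 442 genes under −1.5 had a median of −0.46 in RING1B WT and −1.31 in RING1B I53S.

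**Figure D2:**
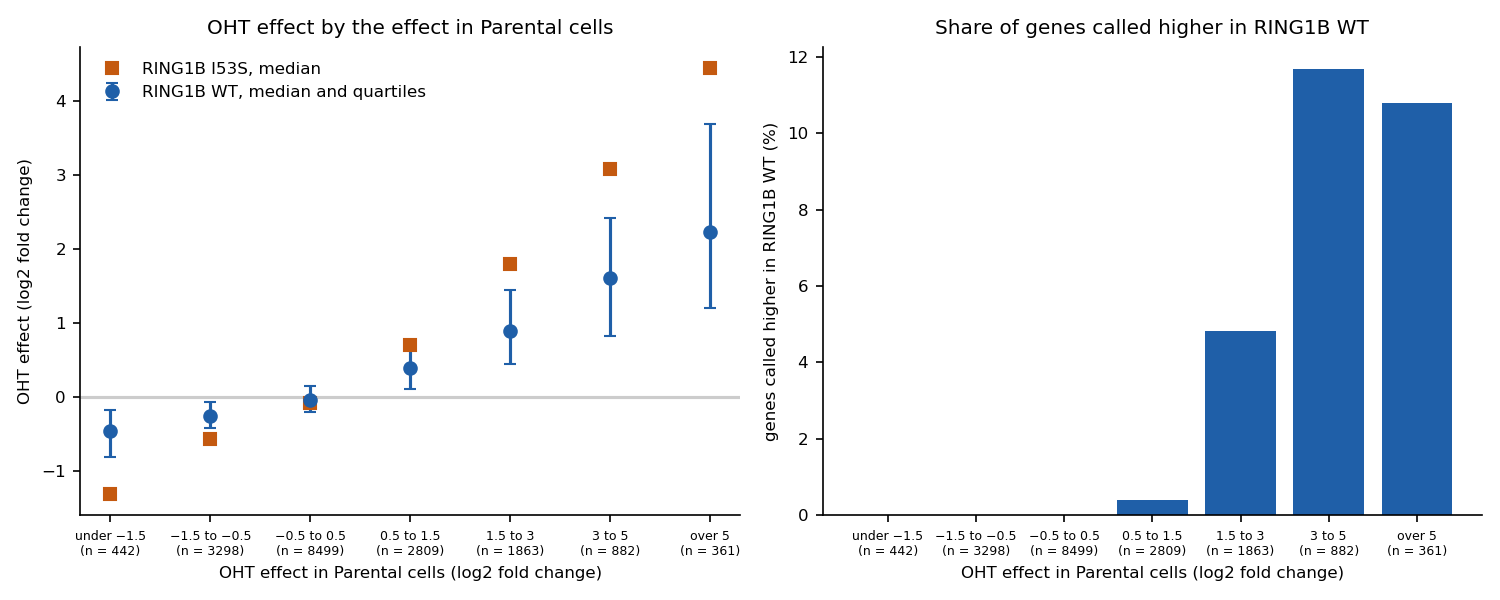
Left, OHT effect (log2 fold change) in RING1B WT (circles, median; bars, quartiles over genes) and in RING1B I53S (squares, median) for genes sorted by their OHT effect in Parental cells, with the number of genes in each class. Right, percentage of each class called higher in RING1B WT. The RING1B WT median climbs from −0.46 in the lowest class to 2.24 in the highest and stays nearer to 0 than RING1B I53S in the classes beyond 0.5 in either direction.

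Germ cell genes formed the list with the largest number of called members. Of the 36 tested genes of a germline and meiosis list, 10 rose (Stra8, Mael, Mov10l1, Slc25a31, Tdrkh, Meioc, Tex101, Tdrd1, Dazl and Asz1), none fell, 33 had a positive log2 fold change and 30 had both OHT libraries above both vehicle libraries. Over all genes tested, 1.34% rose, 52.0% had a positive log2 fold change and 26.9% had both OHT libraries above both vehicle libraries. The list median was 1.25, against 0.02 over all genes tested, and 2.17 in Parental cells, where 24 members were called higher. Without vehicle replicate 2 the count was 2 and without OHT replicate 2 it was 0, and the medians were then 1.11 and 0.86. Mael, Mov10l1, Tdrd1, Tdrkh and Asz1 act in the piRNA pathway that silences transposons in germ cells, Dazl is an RNA-binding protein of germ cells, and Stra8 and Meioc act at the entry into and during meiosis.

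Stra8 (chromosome 6, 34920163 to 34939344) was at 6.42 and 6.47 CPM in vehicle and at 19 and 33.7 CPM with OHT, a log2 fold change of 2.03 ± 0.29 (edgeR FDR = 0.00147). Mael (chromosome 1, 166201201 to 166238747) was at 5.78 and 6.58 CPM in vehicle and at 15.5 and 27.3 CPM with OHT (1.78 ± 0.27, FDR = 0.00272). Mov10l1 (chromosome 15, 88982909 to 89055152) was at 4.38 and 3.62 CPM against 12.7 and 19.4 CPM (1.99 ± 0.31, FDR = 0.00277). In all 3 genes the vehicle replicates lay close together, and OHT replicate 2 was higher than OHT replicate 1. Dazl was at 6.74 and 9.21 CPM in vehicle and at 21.4 and 25.5 CPM with OHT (1.56 ± 0.34, FDR = 0.021). Slc25a31, the ADP/ATP carrier of sperm mitochondria, was at 1.18 and 0.878 CPM against 3.72 and 9.34 CPM (2.63 ± 0.46, FDR = 0.00463). Tdrd1 was at 0.963 and 0.658 CPM against 2.62 and 5.23 CPM (2.24 ± 0.48, FDR = 0.0176), and in Parental cells it rose by 6.01 on the log2 scale. For Tdrd1 and Tex101 the OHT effect was smaller in RING1B WT than in Parental cells (difference −3.77, FDR = 0.0115, and −3.24, FDR = 0.00939).

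The promoters of the germ cell genes carried PCGF6. The list was compiled with known targets of the PCGF6 complex in mind, so the peaks and motifs at its promoters are a description and no independent finding. In RING1B WT cells with OHT, a PCGF6 ChIP-seq peak lay within 2.5 kb of a start site in 10 of the 10 called germ cell genes and in 33 of the 36 tested members of the list, against 29.7% of all genes tested. A RING1B peak was present in 5 of the 10 and an H3K27me3 peak in 4. The motif CACGTG, which reads the same on both strands and is the E-box bound by MGA and MAX, which are partners of PCGF6, was found in 5 of the 12 RefSeq promoters (250 bases before to 50 after the start) of the 10 called genes. It was in 42.9% of the 42 promoters of the list and in 9.56% of the 15822 promoters of all tested genes. TCCCGC, the core letters bound by E2F factors, of which E2F6 is another partner, was searched on either strand and was in 25% of the 12, in 40.5% of the 42 and in 33.0% of the 15822. The 250 bases before the RefSeq start (GRCm38.p6, the first entry of each gene, 5′ to 3′ on the gene's strand) are given for 3 called germ cell genes with the E-box and for Dazl and Tdrkh. The bases given for Dazl and Tdrkh hold neither motif, so that both kinds can be seen. Capitals mark CACGTG and TCCCGC. The windows are chr1:166238745-166238994 (− strand) for Mael, chr3:40708621-40708870 (+ strand) for Slc25a31, chr19:56825959-56826208 (+ strand) for Tdrd1, chr17:50293621-50293870 (− strand) for Dazl and chr3:94412994-94413243 (+ strand) for Tdrkh.
Mael: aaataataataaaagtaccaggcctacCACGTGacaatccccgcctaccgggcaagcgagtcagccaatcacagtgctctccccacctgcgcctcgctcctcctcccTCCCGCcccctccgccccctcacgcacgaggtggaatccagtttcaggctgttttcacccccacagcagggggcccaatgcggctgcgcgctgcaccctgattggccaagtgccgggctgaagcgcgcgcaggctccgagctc
Slc25a31: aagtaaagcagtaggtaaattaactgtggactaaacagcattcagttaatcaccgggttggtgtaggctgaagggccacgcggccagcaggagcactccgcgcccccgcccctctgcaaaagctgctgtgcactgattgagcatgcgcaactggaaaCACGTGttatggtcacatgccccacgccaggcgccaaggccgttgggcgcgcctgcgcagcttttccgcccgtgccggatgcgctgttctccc
Tdrd1: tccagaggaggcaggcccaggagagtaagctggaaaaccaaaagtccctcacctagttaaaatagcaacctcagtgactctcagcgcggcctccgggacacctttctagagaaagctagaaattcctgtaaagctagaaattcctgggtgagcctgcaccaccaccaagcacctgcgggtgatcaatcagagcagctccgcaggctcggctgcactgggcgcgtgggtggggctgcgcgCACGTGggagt
Dazl: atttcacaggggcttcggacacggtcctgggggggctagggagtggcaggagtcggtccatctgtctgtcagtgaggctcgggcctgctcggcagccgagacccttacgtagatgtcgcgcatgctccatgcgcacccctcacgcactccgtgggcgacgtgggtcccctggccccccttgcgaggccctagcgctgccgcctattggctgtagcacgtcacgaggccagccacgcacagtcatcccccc
Tdrkh: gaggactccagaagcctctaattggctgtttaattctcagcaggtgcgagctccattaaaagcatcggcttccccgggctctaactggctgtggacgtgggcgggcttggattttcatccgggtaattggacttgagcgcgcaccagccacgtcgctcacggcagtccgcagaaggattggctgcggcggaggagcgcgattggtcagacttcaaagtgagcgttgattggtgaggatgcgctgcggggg

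Each gene was given the best score (the peak caller's −log10 p) of a peak within 2.5 kb of any of its start sites. The PCGF6 scores were 180 for Mael, 167 for Slc25a31, 232 for Tdrd1, 129 for Dazl and 231 for Tdrkh. Dazl and Tdrkh thus had a PCGF6 peak as well. These peaks need not lie over the printed bases, and an E-box elsewhere in the wider region was not searched for. The RING1B peak scores were 21.9 for Mael, 25.5 for Tdrd1, 12.9 for Dazl and 30.7 for Tdrkh, and Slc25a31 had no RING1B peak in RING1B WT cells with OHT, while it had one with a score of 43.1 in untreated Parental cells. Stra8 had a PCGF6 peak with a score of 18.4 and no peak of RING1B, H2AK119ub1 or H3K27me3. PCGF6, RING1B, H2AK119ub1 and H3K27me3 were each sequenced in 1 library per condition, so these scores have no replicate error.

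A minority of the Hox genes and other homeobox genes rose, at very low levels. Of 29 tested Hox genes, 5 rose (Hoxb13, Hoxa9, Hoxa10, Hoxa7 and Hoxd8), and 29 of 29 had a positive log2 fold change, with a median of 2.90 against 4.93 in Parental cells, where 26 were called higher. The 5 were 17.2% of the list, while over all genes tested 1.34% rose and 52.0% had a positive log2 fold change. The Hox genes specify position along the body axis and are classical Polycomb targets. Hoxb13 (chromosome 11, 96194316 to 96197447) was at 0.749 and 0.219 CPM in vehicle and at 4.63 and 5.98 CPM with OHT (log2 fold change 3.41 ± 0.56, edgeR FDR = 0.00304). Hoxa9 was at 0.214 and 0 CPM against 1.21 and 2.99 CPM (4.10 ± 0.83, FDR = 0.0119), and Hoxa10 at 0.214 and 0 CPM against 1.11 and 4.61 CPM (4.54 ± 0.96, FDR = 0.0173). The summed level of the 29 genes was 13.2 and 11 CPM in vehicle and 32.7 and 53.8 CPM with OHT. Of 73 tested homeobox genes outside the Hox clusters, 8 rose (Nkx2-9, Dlx3, Alx1, Otx1, Pitx1, Dlx5, Barx1 and Lmx1b) and 62 had a positive log2 fold change, with a list median of 1.48 against 4.33 in Parental cells. Alx1, a factor of craniofacial mesenchyme, had no count in vehicle and was at 0.805 and 3.49 CPM with OHT, at least 12.3-fold higher when 3 counts over the vehicle group are taken as the floor. Hoxa7 and Pitx1 overlap a gene on the other strand and the counts ignore strand, so their reads cannot be assigned. The Hox count was 0 and the homeobox count 1 without vehicle replicate 2, and the same without OHT replicate 2.

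Of 26 tested trophoblast genes, 6 rose (Krt7, Id2, Gata3, Esx1, Dlx3 and Hand1), which was 23.1% beside 1.34% of all genes tested. A positive log2 fold change was found in 19 of the 26, against 52.0% of all genes tested. At an unadjusted p under 0.05, 10 were higher and 1 lower, and the lowest value was −2.05. The list median was 0.36, against 2.37 and 18 called genes in Parental cells. By edgeR's test of the difference, 6 of the 26 had a smaller OHT effect in RING1B WT than in Parental cells, beside 1.1% of all genes tested. The count was 2 without vehicle replicate 2 and 2 without OHT replicate 2. Gata3 (chromosome 2, 9857078 to 9890034), a trophectoderm transcription factor, was at 1.60 and 1.21 CPM in vehicle and at 4.93 and 7.60 CPM with OHT, a log2 fold change of 2.13 ± 0.34 (edgeR FDR = 0.00277). In Parental cells it went from 0.489 and 0.494 CPM to 52.9 and 51.8 CPM. The difference between both OHT effects was −4.57 (FDR = 0.000106). Esx1 (chromosome X, 137115397 to 137122083), an X-linked homeobox gene of the placenta, was at 6.42 and 4.50 CPM in vehicle and at 16.5 and 18.4 CPM with OHT (1.67 ± 0.27, FDR = 0.00277), and at 226 and 215 CPM in Parental cells with OHT. Hand1, a basic helix-loop-helix factor of trophoblast giant cells, was at 0.963 and 0.658 CPM against 2.92 and 3.99 CPM (2.06 ± 0.43, FDR = 0.0145), with a difference from Parental cells of −4.27 (FDR = 0.00254). Cdx2, another trophectoderm factor, stayed under 1 CPM in all 4 libraries (0.107 and 0.219 in vehicle, 0.101 and 0.872 with OHT, FDR = 0.625).

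**Figure D3:**
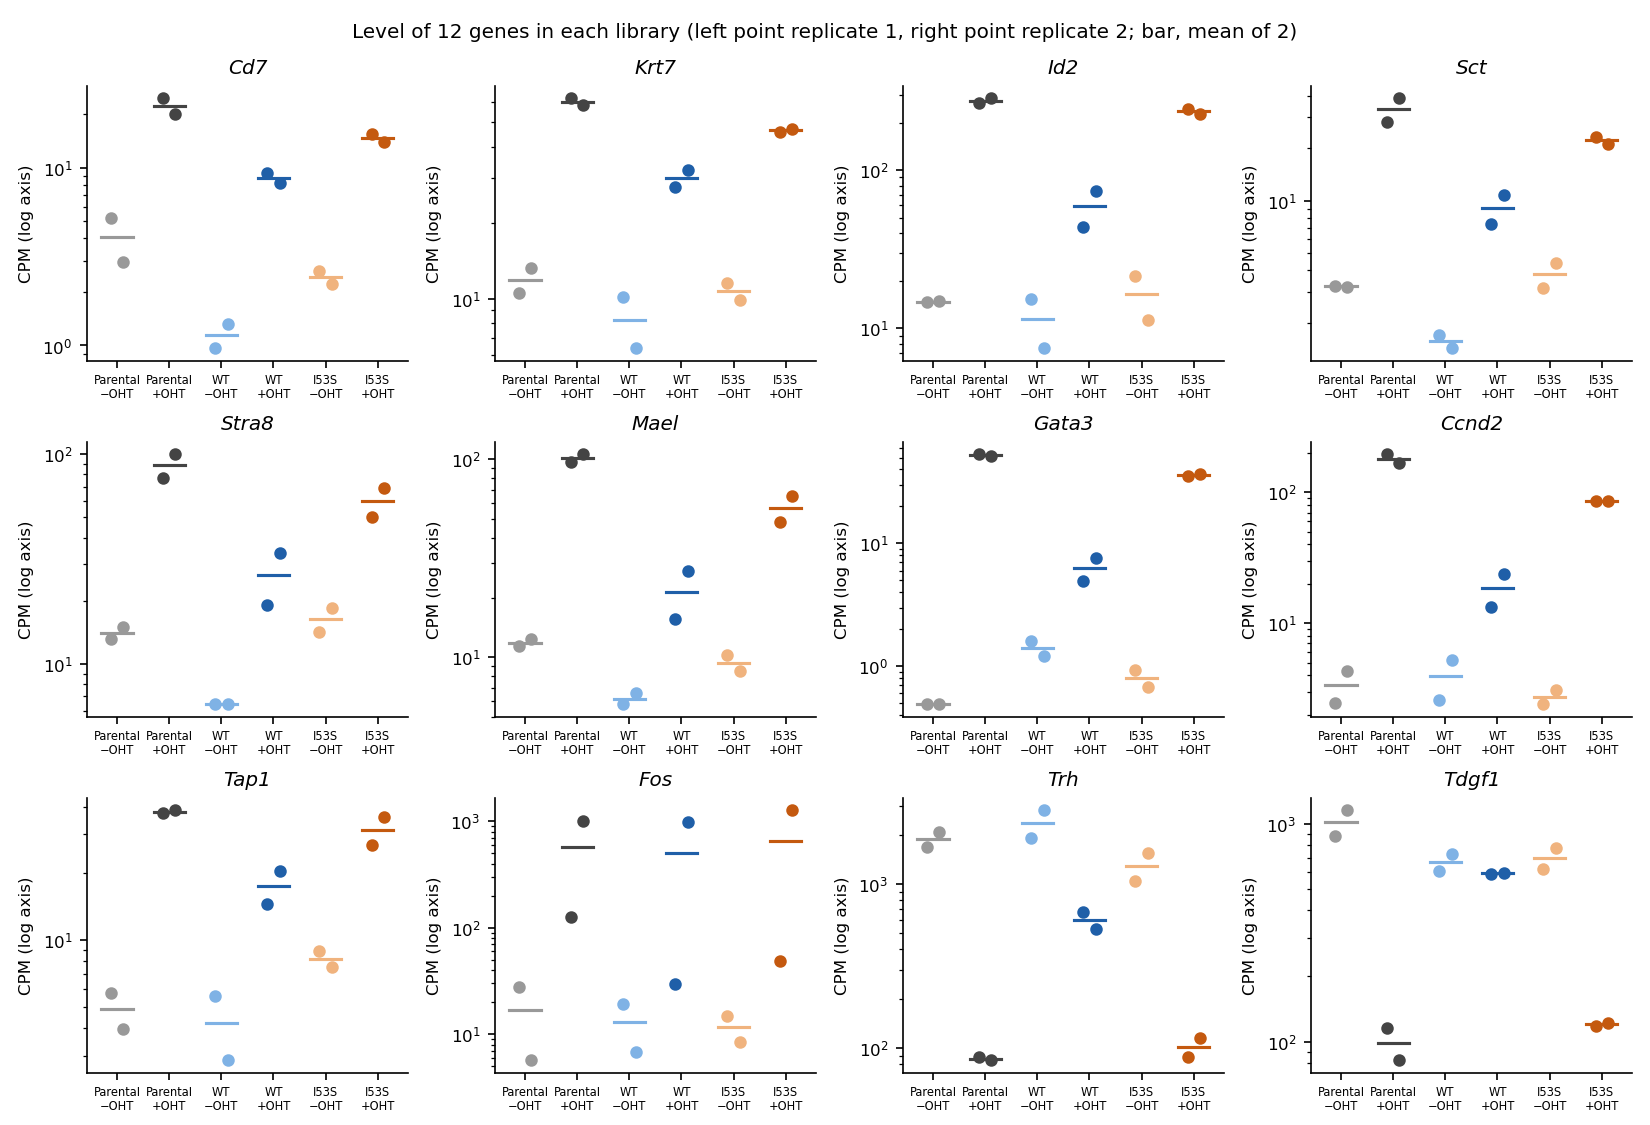
CPM (log axis) of 12 genes in each of the 12 libraries, 3 lines with and without OHT, left point replicate 1, right point replicate 2, bar the mean of both. RING1B WT with OHT lies between its vehicle libraries and Parental with OHT for Id2, Gata3 and Ccnd2, one Fos library stands at 979 CPM, and Tdgf1 is at 589 and 595 CPM in RING1B WT with OHT.

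Ccnd2 (chromosome 6, 127125162 to 127152193), which encodes a D-type cyclin, was at 2.57 and 5.27 CPM in vehicle and at 13.4 and 23.7 CPM with OHT in RING1B WT cells (log2 fold change 2.23 ± 0.33, edgeR FDR = 0.00193). In Parental cells with OHT it was at 195 and 166 CPM, and the OHT effect was smaller in RING1B WT (difference −3.54, FDR = 0.000309). It was the only called member of a cell cycle list of 12 genes (8.33%, beside 1.34% of all genes tested), and it lost its call without OHT replicate 2. Pax3, a paired-box factor of neural crest and muscle, was at 0.749 and 0.329 CPM against 3.52 and 3.74 CPM (2.72 ± 0.45, FDR = 0.00348). Wnt3, a ligand needed for gastrulation, was at 0.963 and 0.439 CPM against 5.03 and 5.60 CPM (2.89 ± 0.46, FDR = 0.00277), and Wnt9a rose by 2.48 ± 0.48 (FDR = 0.00974). Dlk1, an imprinted Notch ligand, was at 0.535 and 0.439 CPM against 2.82 and 4.11 CPM (2.79 ± 0.52, FDR = 0.00739). In these 4 genes both OHT libraries were above both vehicle libraries, as in all 244 called genes and in 26.9% of all genes tested.

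The lists of signalling pathways held 1 to 3 called genes each, which was 4.55% of the Wnt list, 8.33% of the BMP list, 3.45% of the FGF list, 4.35% of the Notch list and 17.6% of the retinoic acid list, beside 1.34% of all genes tested. In the Wnt list 2 of 44 tested members rose (Wnt3 and Wnt9a), in the BMP list 2 of 24 (Id2 and Bmp8b, which overlaps an antisense gene), in the FGF list 1 of 29 (Fgfr3) while 1 fell (Spry4), and in the Notch list 1 of 23 (Dlk1). In the retinoic acid list 3 of 17 rose (Stra8, the vitamin A transporter gene Stra6, and the receptor gene Rxrg). Rxrg had no count in vehicle and was at least 4.80-fold higher with OHT. Among other lineage lists, 2 of 24 tested Gata, T-box and Zic genes rose (Gata3 and Tbx15), 2 of 17 mesendoderm genes (Wnt3 and Hand1), 1 of 24 Sox and Pax genes (Pax3), 1 of 24 basic helix-loop-helix genes (Hand1) and 1 of 35 forkhead genes (Foxp2). None of the 19 primitive endoderm genes, 17 neuroectoderm genes, 15 Nodal pathway genes, 13 mesenchymal transition genes, 12 Hedgehog genes or 10 genes of 2-cell-like cells was called in either direction by edgeR. At the 1.34% called higher over all genes tested, lists of these sizes hold few or no calls, so this does not show that they were unchanged. In that order, 18, 11, 4, 8, 7 and 6 of them had a positive log2 fold change (52.0% over all genes tested). Their list medians were 1.18, 0.32, −0.10, 0.68, 0.11 and 1.16. In the same order, 8, 2, 0, 4, 3 and 1 had a positive and 1, 2, 3, 1, 0 and 0 a negative change at an unadjusted p under 0.05. DESeq2 called 1 primitive endoderm and 1 Hedgehog gene higher. With vehicle replicate 2 or OHT replicate 2 left out, no list named in this paragraph had more than 1 called gene.

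**Figure D4:**
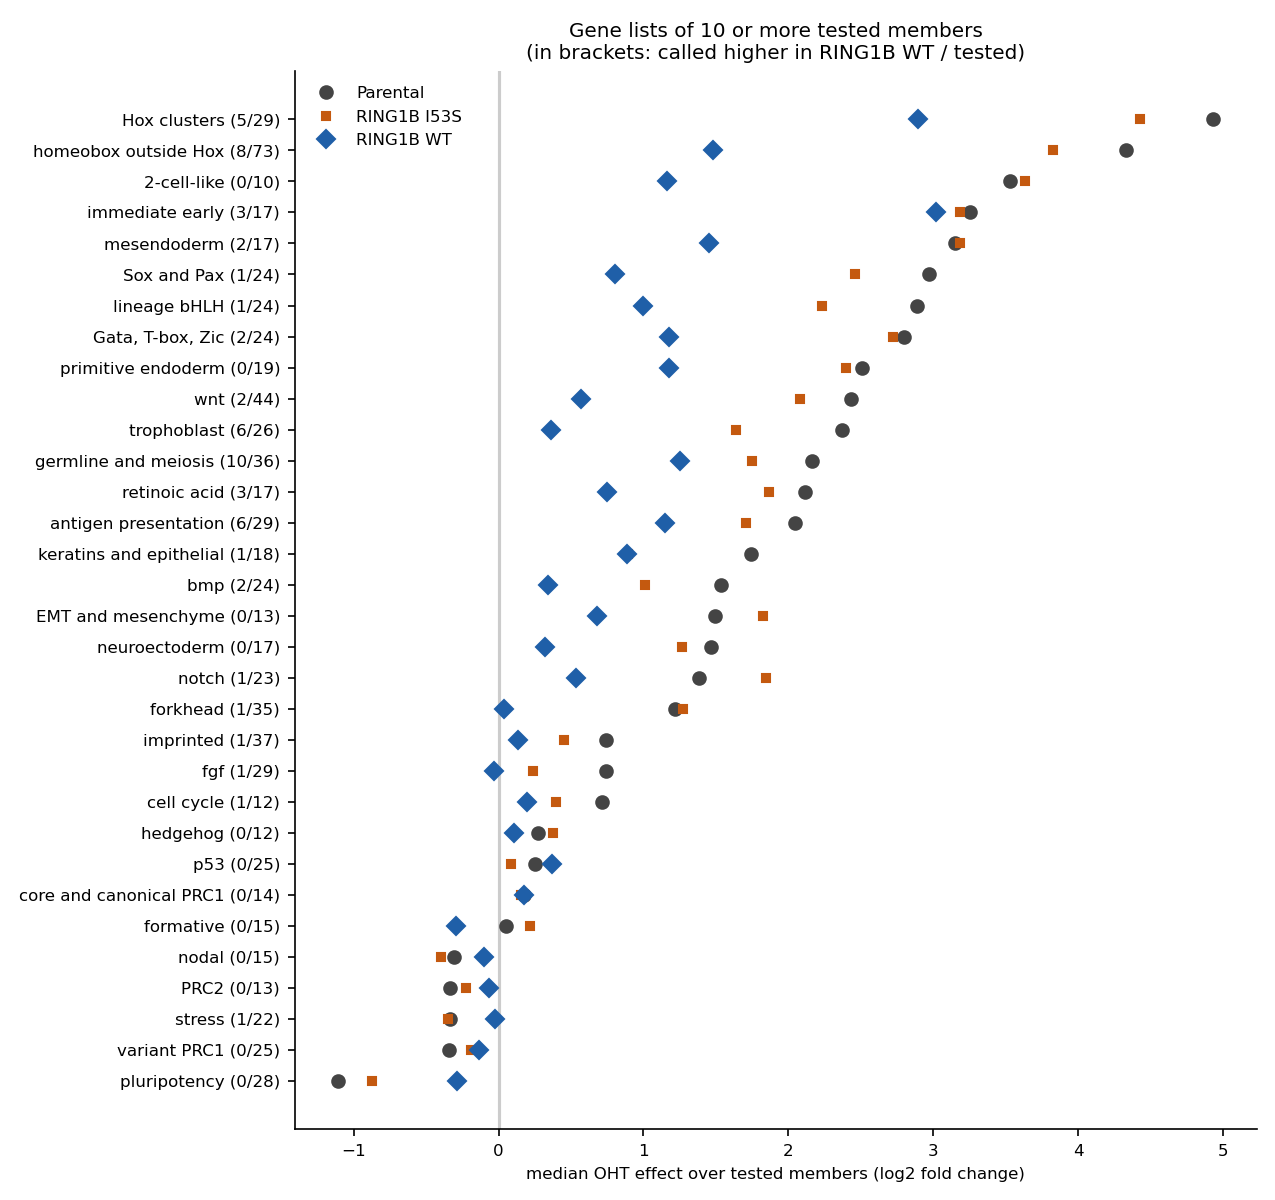
Median OHT effect (log2 fold change) over the tested members of each gene list with at least 10 of them, in Parental (circles), RING1B I53S (squares) and RING1B WT cells (diamonds), with the number called higher in RING1B WT over the number tested. The RING1B WT median of the Hox list is 2.90 beside 4.93 in Parental cells, and that of the pluripotency list −0.29 beside −1.11.

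Of 29 tested genes of antigen presentation, 6 were called higher (Tap1, Psmb9, H2-Q7, H2-T10, Psmb8 and H2-Ab1). This list was put together after these values had been seen, so it is a description only. The 6 were 20.7% of it, while over all genes tested 1.34% rose and 52.0% had a positive log2 fold change. A positive log2 fold change was found in 26 members, with a list median of 1.15 against 2.04 in Parental cells, and the count was 0 without vehicle replicate 2 and 0 without OHT replicate 2. Tap1, a subunit of the peptide transporter, was at 5.56 and 2.85 CPM in vehicle and at 14.6 and 20.4 CPM with OHT (log2 fold change 2.05 ± 0.32, edgeR FDR = 0.00277). Psmb9, an immunoproteasome subunit, was at 6.42 and 5.38 CPM against 17.0 and 22.7 CPM (1.74 ± 0.27, FDR = 0.00277). Tap1 and Psmb9 overlap head to head and their reads cannot be fully told apart, and the H2 genes have near-identical copies. Immediate early genes, also listed after their values were seen, had 3 of 17 called members (17.6%, beside 1.34% of all genes tested), Fos, Jun and Ccn1. Fos was at 19 and 6.80 CPM in vehicle and at 29.5 and 979 CPM with OHT (FDR = 0.0457), so its call came from 1 library. The summed level of the list was 461 and 384 CPM in vehicle and 487 and 2542 CPM with OHT, and replicate 2 was also the higher one with OHT in Parental cells (1043 and 3600 CPM) and in RING1B I53S cells (723 and 4273 CPM). The part of this in the other calls of RING1B WT +OHT replicate 2 was not tested.

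Only Trh fell with every library left out. Trh (chromosome 6, 92242061 to 92244650), which encodes thyrotropin-releasing hormone, was at 1897 and 2805 CPM in vehicle and at 679 and 534 CPM with OHT, a log2 fold change of −1.95 ± 0.22 (edgeR FDR = 0.00052). In Parental cells it fell by 4.45 on the log2 scale, and the difference was 2.49 (FDR = 0.000159). The other 6 genes called lower were Ina, Spry4, Nfkbil1, Tbcc, Atf5 and Zbed3. Spry4, a feedback inhibitor of FGF signalling, was at 4.28 and 12.3 CPM in vehicle and at 1.11 and 1.37 CPM with OHT (−2.74 ± 0.52, FDR = 0.00818). In Parental cells 333 genes were called lower (1.83% of those tested), and 1 of the 7, Trh, was among them. Ina and Atf5 overlap genes on the other strand. The number of genes lower was 4 without vehicle replicate 2, 16 without OHT replicate 1 and 1 without OHT replicate 2.

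No pluripotency gene was called in RING1B WT by edgeR, beside 1.34% called higher and 0.0386% called lower over all genes tested. At those shares a list of this size holds few or no calls. Of 28 tested, 3 had a positive log2 fold change, 6 were lower at an unadjusted p under 0.05, and the median was −0.29, while 9 were called lower in Parental cells and the median there was −1.11. Pou5f1 was at 467 and 453 CPM in vehicle and at 415 and 432 CPM with OHT (FDR = 0.776), Nanog at 336 and 616 against 351 and 349 CPM (FDR = 0.472), and Sox2 at 174 and 217 against 155 and 134 CPM (FDR = 0.354). The OHT values of Pou5f1 and Sox2 lay below both vehicle values, and those of Nanog between them. The Nodal inhibitor Lefty1 was at 319 and 227 CPM in vehicle and at 129 and 89.8 CPM with OHT (−1.32, FDR = 0.00609), and Lefty2 at 1232 and 1370.3 against 675 and 623 CPM (−1.0, FDR = 0.0122). Both passed the FDR but not the fold threshold. In Parental cells their log2 fold changes were −3.83 and −3.32. The 8 ESC markers summed to 5584 and 6798 CPM in vehicle and to 5289 and 5472 CPM with OHT. Of 12 fibroblast markers 4 could be tested, and 4 had a positive log2 fold change at an unadjusted p under 0.05, with a median of 1.06. Col1a1, a collagen chain, passed the FDR (0.0437) but not the fold threshold, and none was called by edgeR. The 4 genes summed to 15.4 and 15.5 CPM in vehicle and to 28.8 and 29.4 CPM with OHT, while the other 8, among them Dcn, Lum and Postn, were too low to be tested. The part of these markers in the other results was not tested.

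Where the rescue line and the Parental line responded differently to OHT, the change was mostly smaller in the rescue line. By edgeR's test of the difference, 79 genes (0.435% of those tested) had a higher log2 fold change with the rescue and 200 genes (1.1%) a lower one. Of the 79, 76 were genes that fell in Parental cells, and of the 200, 195 were genes that rose there. These comparisons share the Parental libraries. Tdgf1, the Nodal co-receptor Cripto, was at 604 and 727 CPM in vehicle and at 589 and 595 CPM with OHT in RING1B WT, and went from 880 and 1150.4 CPM to 116 and 82.0 CPM in Parental cells, a difference of 3.19 (edgeR FDR = 6.49e-06). Pecam1, a surface adhesion molecule of naive ESCs, was at 253 and 275 CPM against 239 and 225 CPM in RING1B WT, with a difference of 2.29 (FDR = 2.38e-05). Aoah, an acyloxyacyl hydrolase, was at 48.9 and 66.1 CPM in vehicle against 28.8 and 28.1 CPM with OHT, with a log2 fold change of −1.01 in RING1B WT and −4.41 in Parental cells. Among the 244 genes that rose in RING1B WT, 21 had a smaller OHT effect than in Parental cells by this test, which uses the same RING1B WT libraries. Against RING1B I53S, the OHT effect was higher in 25 genes (0.138%) and lower in 38 (0.209%), with Gata3 (−3.33, FDR = 0.00348) and Esx1 (−2.45, FDR = 0.00337) among the latter. Single libraries moved these counts. The count of 200 was 44 without OHT replicate 1 of RING1B WT and 83 with its vehicle replicate 1 left out. It was 64 and 80 when OHT replicates 2 and 1 of the Parental line were left out, and 87 and 129 for its vehicle replicates 2 and 1. The count of 79 was 43 without OHT replicate 2 of the Parental line, and 44 and 51 without OHT replicate 1 and vehicle replicate 1 of RING1B WT. The counts of 25 and 38 were 8 and 1 without OHT replicate 1 of RING1B WT and 10 and 7 without its vehicle replicate 1. The count of 38 became 17 and 22 when vehicle replicate 2 and OHT replicate 2 of RING1B I53S were left out.

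Of the 244 genes, 12 were not called higher in Parental cells. The median log2 fold change over the 12 genes was 1.95 in RING1B WT and 1.18 in Parental cells. They were picked for passing the call in the first line and not in the second, so this order of the medians follows from the selection. In Parental cells 11 of the 12 also had a positive log2 fold change. By edgeR's test of the difference, 0 of the 244 had a higher OHT effect in RING1B WT than in Parental cells.

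Most promoters of the genes that rose held Polycomb peaks in the rescued cells with OHT. A promoter was the region 2.5 kb to either side of an annotated start site, and a peak counted when at least 1 bp fell in it. In RING1B WT cells with OHT, a RING1B peak was present at 134 of the 244 (54.9%), H2AK119ub1 at 177 (72.5%) and H3K27me3 at 189 (77.5%). Over all genes tested the shares were 14.8%, 31.1% and 27.9%. Over the 2516 genes that rose in Parental cells but were not called in RING1B WT, they were 51.2%, 66.5% and 76.3%, close to those of the 244. SUZ12, the PRC2 core subunit, was at 71.3% of the 244, PCGF2 at 58.2%, PCGF6 at 63.1%, JARID2 at 68.4% and MTF2 at 72.5%. The CBX7 and RYBP libraries are labelled with 72 and no treatment and were taken as 72 h of OHT, and gave 42.2% and 18.4%. Further JARID2 and MTF2 libraries with that label gave 69.7% and 73.0%. All 3 of RING1B, H2AK119ub1 and H3K27me3 were present at 48.8% of the 244 promoters, and none of them at 17.2%.

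RING1B peaks were fewer than in untreated Parental cells, at the 244 genes as elsewhere. The series holds no RING1B library of RING1B WT cells in vehicle. Line, transgene and treatment therefore differ together in this comparison and cannot be told apart. Of 163 promoters among the 244 with a RING1B peak in Parental cells without OHT, 134 (82.2%) kept it in RING1B WT with OHT and none gained one. The share kept was 85.1% over the 2516 genes and 70.3% over all genes tested. Id2 had a RING1B peak with a score of 95.8 in untreated Parental cells and none in RING1B WT with OHT, and its H2AK119ub1 score was 22.9 and 25.7. Gata3 had RING1B scores of 110 and 79.3, Ccnd2 of 180 and 117 and Hand1 of 206 and 126. For H2AK119ub1, 156 of 161 promoters kept their peak and 21 gained one. JARID2 and MTF2 were also sequenced in RING1B WT cells in vehicle. From vehicle to OHT in that line, 166 of 177 promoters among the 244 kept a JARID2 peak and 177 of 189 an MTF2 peak. The shares kept were 93.8% and 93.7%, against 83.2% and 71.6% over all genes tested. With peaks of a score of at least 20, the shares at the 244 were 38.9% for RING1B, 46.3% for H2AK119ub1 and 59.4% for H3K27me3. A peak list says where a library passed the caller's threshold, and a missing peak can also come from a library of lower signal.

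**Figure D5:**
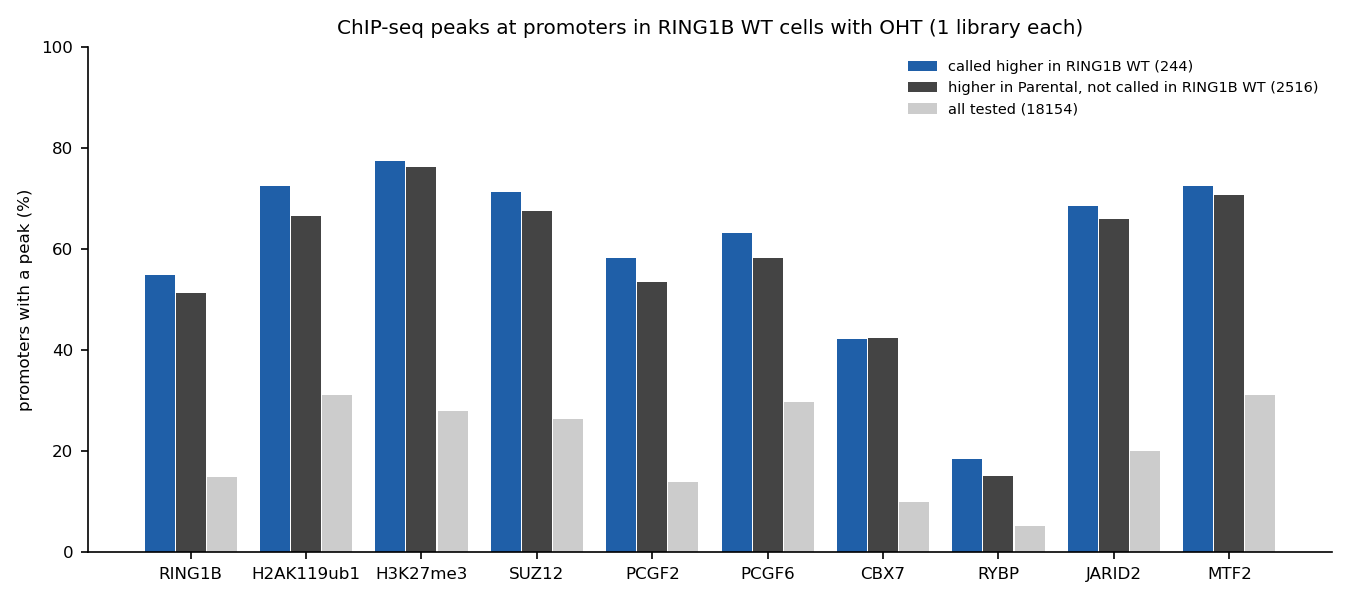
Percentage of promoters (2.5 kb to either side of a start site) with a ChIP-seq peak of each antibody in RING1B WT cells with OHT, 1 library each, for the 244 genes called higher (blue), the 2516 genes higher in Parental cells and not called in RING1B WT (dark grey) and all 18154 genes tested (light grey). For RING1B the bars stand at 54.9%, 51.2% and 14.8%, and for H2AK119ub1 at 72.5%, 66.5% and 31.1%.

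No subunit of PRC1 or PRC2 was called by edgeR in RING1B WT, among 14 core and canonical PRC1, 25 variant PRC1 and 13 PRC2 genes, of which 3, 2 and 0 had a positive and 1, 1 and 1 a negative change at an unadjusted p under 0.05. The shares called over all genes tested were 1.34% higher and 0.0386% lower, and at those shares lists of these sizes hold few or no calls. DESeq2 called 1 canonical PRC1 gene higher. Rnf2 was at 256 and 290 CPM in vehicle and at 260 and 233 CPM with OHT (log2 fold change −0.15 ± 0.19, FDR = 0.767). Reads of the transgene and of the floxed gene are counted together and an antisense neighbour, Trmt1l, overlaps, so this value does not measure the deletion. In Parental cells the same count changed by −0.55. Ring1, deleted in all lines, was at 1.43 to 2.78 CPM in the 4 libraries. Pcgf2 was at 52.6 and 50.6 CPM against 54.2 and 42.5 CPM, and Rybp at 53 and 50.2 against 48.2 and 41.2 CPM.

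The 4 libraries held 8140106 to 10032457 counts, within the range of all 12 (8140106 to 12743460), and mitochondrial transcripts took 2.66 to 2.93% of them. On the first principal component of the 12 libraries, which held 66.5% of the variance, the RING1B WT libraries with OHT lay at −14.3 and 2.1, between their vehicle libraries (−58.5 and −85.7) and the Parental libraries with OHT (102 and 103).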

How the data were processed

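RNA was sequenced from SMART-seq2 libraries, 2 per line and treatment. Raw counts per gene name were deposited by the authors, who used STAR 2.7 on mm10, duplicate removal and unstranded featureCounts on GENCODE M21 exons. Depth and counting precision are given by the total counts, 8140106 to 10032457 in the 4 RING1B WT libraries. Peak lists were deposited with a −log10 p-value from MACS2 2.1.1 as each peak's score, called by the authors per library. A deposited table of normalized counts, the authors' comparison tables (log2 fold changes and adjusted p-values) and 4 columns of Eed fl/fl cells were not used.

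The 12 libraries of 6 groups were fitted together with edgeR 4.0.16 (R 4.3.3, TMM, filterByExpr, quasi-likelihood F test, Benjamini-Hochberg over 18154 genes, common biological coefficient of variation 0.181). Each SE is the absolute log2 fold change divided by the square root of that test's F. It rests on a spread estimated over all 12 libraries and not on the 4 of RING1B WT alone. The fit was tested on simulated data. Gene start sites came from GENCODE M21 on GRCm38, and promoter sequences from RefSeq GRCm38.p6 matched by symbol (12432 of the tested genes). Alternatives were DESeq2 1.42.0, other normalizations and filters, a replicate block, the RING1B WT libraries alone and each library left out, with the same genes tested. Genes were named by a rule: the 10 lowest adjusted p, all genes lower, the 8 highest levels, the 3 lowest adjusted p in each list, calls kept with every library left out, calls absent in Parental cells (6), the strongest differences between lines, and fixed Polycomb, pluripotency and marker genes. Other called members of the germline, Hox, homeobox, trophoblast and antigen lists and Lefty1 were added after their values were seen. Some genes that the rule names are not reported here. The comparison, gene lists and rule were chosen with earlier results of these data known. CPM is not corrected for gene length, so levels are compared only within a gene. Gene names shared by several gene models (31 tested names) and genes overlapping on opposite strands are uncertain.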

Additional observations from a re-analysis of the deposited data

Results flagged for a closer look

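These named genes responded differently to OHT in RING1B WT and in another line, by edgeR's test of the difference itself. A positive value is a higher log2 fold change in RING1B WT. Against Parental cells the difference was 3.19 for Tdgf1, 3.35 for Tdgf1-ps1, 2.77 for Manba, 2.29 for Pecam1 and 3.39 for Aoah. Tdgf1 and its pseudogene Tdgf1-ps1 are near-identical copies, and their values cannot be read as separate genes. Manba, a lysosomal mannosidase, was at 444 and 474 CPM in vehicle and at 348 and 278 CPM with OHT in RING1B WT, and at 49.8 and 50.0 CPM in Parental cells with OHT. The difference was −4.57 for Gata3, −3.08 for Esx1, −3.54 for Ccnd2, −4.04 for Ly6h and −1.70 for Cd24a. Cd24a, a surface glycoprotein, was at 93.3 and 107 CPM in vehicle and at 96.4 and 83.6 CPM with OHT in RING1B WT, and rose by 1.55 on the log2 scale in Parental cells.

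Against RING1B I53S the difference was 7.32 for 6330410L21Rik, 2.46 for Manba, 3.20 for Aoah, −2.45 for Esx1, −3.33 for Gata3 and −5.33 for Etv4. 6330410L21Rik was at 9.09 and 7.35 CPM in vehicle and at 10.4 and 8.84 CPM with OHT in RING1B WT, and at 14.1 and 14.4 against 0.100 and 0.0861 CPM in RING1B I53S. It overlaps Egf on the other strand, so its reads cannot be assigned. Etv4, an ETS factor downstream of FGF signalling, was at 2.57 and 3.29 CPM in vehicle and at 0.704 and 2.24 CPM with OHT in RING1B WT (FDR = 0.363), and rose by 4.31 in RING1B I53S.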

How the results depend on the processing

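DESeq2 called 286 genes higher, 230 of them among the 244, and upper quartile normalization, which moved the median of all genes to 0.10, called 321. The number higher was 466 without the filter on low counts, 77 with at least 10 counts in each library, 146 with the RING1B WT libraries alone and 408 with these alone and the replicate block. With libraries left out it ranged from 9 to 240, and with both replicates of 1 number left out, a choice made after seeing the data, from 0 to 230. The number lower was 17 without the filter, 23 with the RING1B WT libraries alone and the replicate block, 56 with the FDR alone, 29 with a log2 threshold of 1, 1 to 16 with a library left out and 0 to 12 with both replicates of 1 number left out. The difference from Parental cells gave 152 genes higher with the FDR alone and 146 with a log2 threshold of 1 (43 to 74 with a library left out), and 400 lower without the filter and 124 with at least 10 counts (44 to 179). The difference from RING1B I53S gave 98 lower with DESeq2, 165 without the filter, 23 with at least 10 counts, 63 with the replicate block and 24 with these 8 libraries only (1 to 42, and 8 to 26 higher). The causes were not tested. Deviations of same-numbered replicates correlated at 0.134 to 0.301 between lines of the same treatment and at 0.0627 between both RING1B WT groups, and the labels tie the numbers to no shared culture or day. The block gave 284 genes higher and 7 lower in RING1B WT, 92 higher and 271 lower against Parental cells and 33 higher against RING1B I53S. H3K27me3 peaks with 50% of their length in the promoter were at 69.7% of the 244, and peaks of a score of at least 20 gave 38.9% for RING1B, 46.3% for H2AK119ub1 and 59.4% for H3K27me3. Uncalled genes changed sign with a library left out, over ranges of −0.18 to 0.77 for Ring1, −0.28 to 0.069 for Pcgf2, −0.18 to 0.093 for Mtf2, −0.64 to 2.34 for Cdx2 and −0.82 to 0.060 for Nanog, and with upper quartile normalization Ezh2 became 0.017 and Mtf2 0.034. Of the named genes' values under an alternative, 111 lost their call, 780 kept their state and 7 changed sign. The 780 include values of genes that were not called in the main fit and had no call to lose. At these depths genes of a few CPM rest on few counts.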

Other observations

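The p53 list, which the report does not describe, had no called gene among 25 tested by edgeR in RING1B WT, with 10 higher and 1 lower at an unadjusted p under 0.05 and a median of 0.37, against 0.25 in Parental and 0.08 in RING1B I53S cells. Its summed level was 2857 and 2942 CPM in vehicle and 3529 and 3532 CPM with OHT. The share called higher over all genes tested was 1.34%.

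The stress list held 1 called gene of 22, the heat shock gene Hspa1a (0.856 and 0.219 CPM in vehicle, 2.31 and 3.24 CPM with OHT). The keratin and epithelial list held 1 of 18, Krt7, and the imprinted list 1 of 37, Dlk1. Over all genes tested 1.34% were called higher. The 8 H2A deubiquitination genes, the 4 tested fibroblast genes and the 7 tested oestrogen response genes held none by edgeR, with 1 negative, 4 positive and 0 changes at an unadjusted p under 0.05. The formative list held 0 of 15 higher and 1 lower, Spry4.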
